A study of Mus musculus with 6 samples.

Results

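The 40 immediate early and AP-1 genes described here were taken by name from a fixed list and matched by Ensembl identifier to the 39059 genes in the count files. All 40 were found, and all 40 had enough reads to be tested. The RNA was that of muscle stem (satellite) cells, sorted by flow cytometry from hind limbs of C57BL/6J mice aged 19 days and extracted without culture. In 3 libraries the mice were Lmna Δ8-11 -/-, with exons 8 to 11 deleted on both copies of Lmna, the gene of lamin A and lamin C, and these are called mutant below. The other 3 libraries came from Lmna Δ8-11 +/+ mice, called wild type. The labels name no treatment, and no Cre driver or other allele, for either group. Cells of 3 mice were used per condition, but no label says which library is which animal. The p-values therefore speak only to variation among the 6 samples, part of which may be technical.

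Immediate early genes are switched on within minutes of a growth factor, cytokine or stress signal, from factors already present in the cell and without new protein synthesis. Many encode transcription factors, among them the Fos and Jun proteins, which pair through leucine zippers to form the dimer AP-1 and bind DNA. Others encode brakes on the same signals: phosphatases that switch off MAP kinases, proteins that destroy short-lived mRNA, and inhibitors of NF-κB and cytokine receptors. In satellite cells this programme is known to be induced while muscle is being dissociated and sorted, as well as by injury.

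Reads assigned to genes numbered 6613636 to 9552751 per library. The transcript Gm42418 was 1.303 and 1.39% of gene reads in mutant library 2 and wild-type library 2 and 0.091 to 0.18% in the other 4. With both of these libraries left out 11 of the 40 genes passed the test, with Gadd45b in place of Jund. Of all genes tested 3858 passed in that fit, against 2980 with all 6 libraries. Reads of 4 Y-linked genes numbered 3074 to 4831 in mutant library 2 and wild-type libraries 2 and 3, and 0 to 3 in the other 3 libraries. Lmna was at 421 ± 39.98 CPM (gene reads scaled to a common library total with TMM factors; SD, n = 3) in mutant and 946 ± 108 CPM in wild-type libraries, a count that includes the exons left in place. Of 9 satellite cell markers 5 fell and 0 rose in mutant libraries, and their summed level was 1230 to 2013 CPM against 2346 to 2521 CPM, with mutant library 2 the highest of its group. The summed level of 10 endothelial markers was 474 to 810 CPM in mutant and 537 to 823 CPM in wild-type libraries, and 0 of them passed edgeR's test (1 had an unadjusted p under 0.05). For 12 macrophage markers it was 46.7 to 80.1 against 43.6 to 72.2 CPM, with 2 higher and 0 lower of 10 tested, and for 4 neutrophil markers 16.2 to 105 against 51.2 to 75.4 CPM. For 5 lymphocyte markers it was 0.655 to 3.82 against 3.50 to 13.6 CPM, with 0 tested for lack of reads and Cd3e at 0 in all mutant libraries. For 7 fibro-adipogenic markers it was 1548 to 2107 against 3003 to 3231 CPM, with 1 higher and 4 lower. For 8 pericyte and smooth muscle markers it was 10658 to 11431 against 9773 to 13690 CPM, with 3 higher and 1 lower. For 5 Schwann cell markers it was 2984 to 3941 against 3589 to 4547 CPM, with 2 higher and 2 lower. For 6 adipocyte markers it was 384 to 726 against 181 to 293 CPM, with 3 higher and 0 lower of 3 tested. The adipocyte markers not tested were Retn (86 reads in the mutant and 1 in the wild-type group), Plin1 (17 and 4) and Lep (0 and 1). In bulk RNA, fewer cells of a type and less RNA per cell cannot be told apart, and the part of cell composition in the results on the 40 genes was not tested.

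Promoter windows are printed for 5 members that differed between the genotypes and held a match, but not for Nr4a1, which also did. They show where letters of known response motifs lie. Each is the stretch of 250 bases before the RefSeq start of the gene on build GRCm38.p6, given 5′ to 3′ on the strand of the gene. Capitals mark letters that match an NF-κB motif in Nfkbia, Ier3 and Tnfaip3, the AP-1 motif TGANTCA in Tnfaip3, the cytokine-response motif TTCNNNGAA in Socs3, and the cAMP-response motif TGACGTCA in Maff. Nfkbia lies at chr12:55492648-55492897 (minus strand), Ier3 at chr17:35821463-35821712 (plus), Tnfaip3 at chr10:19015411-19015660 (minus), Socs3 at chr11:117969367-117969616 (minus) and Maff at chr15:79347270-79347519 (plus), the second of 3 windows listed for that gene. Another window listed for Tnfaip3, at chr10:19011964-19012213, held no match and is not printed.
Nfkbia: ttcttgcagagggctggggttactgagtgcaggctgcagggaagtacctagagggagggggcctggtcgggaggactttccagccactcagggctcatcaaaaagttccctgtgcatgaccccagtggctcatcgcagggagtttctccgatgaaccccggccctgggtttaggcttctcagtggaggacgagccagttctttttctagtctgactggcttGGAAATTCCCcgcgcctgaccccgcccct
Ier3: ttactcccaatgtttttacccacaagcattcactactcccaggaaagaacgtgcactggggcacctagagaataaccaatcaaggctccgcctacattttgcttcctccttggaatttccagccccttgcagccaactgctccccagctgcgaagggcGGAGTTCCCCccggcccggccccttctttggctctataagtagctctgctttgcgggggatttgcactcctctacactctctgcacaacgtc
Tnfaip3: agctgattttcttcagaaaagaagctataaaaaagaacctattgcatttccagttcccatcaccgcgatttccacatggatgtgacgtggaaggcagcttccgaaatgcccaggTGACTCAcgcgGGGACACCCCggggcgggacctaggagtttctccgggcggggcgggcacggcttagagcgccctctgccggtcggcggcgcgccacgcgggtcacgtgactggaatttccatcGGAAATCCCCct
Socs3: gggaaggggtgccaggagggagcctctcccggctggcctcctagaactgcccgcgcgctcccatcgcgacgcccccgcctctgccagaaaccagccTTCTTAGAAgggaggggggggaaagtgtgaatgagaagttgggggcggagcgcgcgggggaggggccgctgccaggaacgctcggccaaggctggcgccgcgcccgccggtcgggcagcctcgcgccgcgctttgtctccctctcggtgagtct
Maff: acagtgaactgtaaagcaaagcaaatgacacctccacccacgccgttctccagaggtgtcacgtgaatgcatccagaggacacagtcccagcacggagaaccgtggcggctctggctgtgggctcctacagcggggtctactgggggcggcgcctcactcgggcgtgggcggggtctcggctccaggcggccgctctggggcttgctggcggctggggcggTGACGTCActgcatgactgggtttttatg

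RefSeq windows of 300 bases (250 before and 50 after the start) were at hand for 32 of the 40 genes, 38 windows in all, and were searched on both strands. The NF-κB motif was in 8 of the 38 windows, or 21.1%, and in 4.51% of all 32851 windows in the table. The genes with it were Fos, Fosb, Fosl2, Ier3, Maff, Nfkbia, Nr4a1 and Tnfaip3. The cAMP-response motif TGACGTCA was in the windows of Btg2, Dusp1 and Maff, 7.89% of member windows and 1.79% of all windows. The CArG box, the site of serum response factor, was found for Dusp5 and Zfp36, 5.26% against 1.63%. TGANTCA was found for Csrnp1, Tnfaip3 and Zfp36l1, 7.89% against 7.81%, and TTCNNNGAA for Csrnp1, Maff, Socs3 and Zfp36, 10.5% against 8.30%. The Nr4a motif AAAGGTCA was in 0 of the 38 windows and in 1.51% of all. Searched letters could overlap between motifs. Of the 7 members that fell, Jun, Jund, Atf3 and Nr4a3 had a window but no match to any of these motifs. Members with a match that were not called included Btg2, Dusp1 and Zfp36. A match describes letters in these windows and not a bound site.

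Freshly sorted cells of both genotypes held large amounts of this RNA. Together the 40 genes took 1.90 to 2.17% of gene reads in mutant libraries and 2.22 to 2.46% in wild-type libraries. Per kilobase of exon, a scale on which genes of different length can be compared, Fos stood at 1391 CPM in mutant and 1731 CPM in wild-type libraries, and ranked 4 by its mean over all libraries among protein-coding genes. Atf3 ranked 22, Junb 26 and Jun 39. Next in level came Gadd45b, Btg2, Socs3, Nfkbia, Jund and Klf6. At the other end, Fosl1 (5.78 and 6.33 CPM per kilobase), Dusp2 (4.79 and 5.68) and Egr3 (1.84 and 2.41) were the least abundant. Neighbours in the order often did not differ beyond their spread: Junb and Jun stood at 663 and 658 CPM per kilobase in wild-type libraries.

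**Figure D1:**
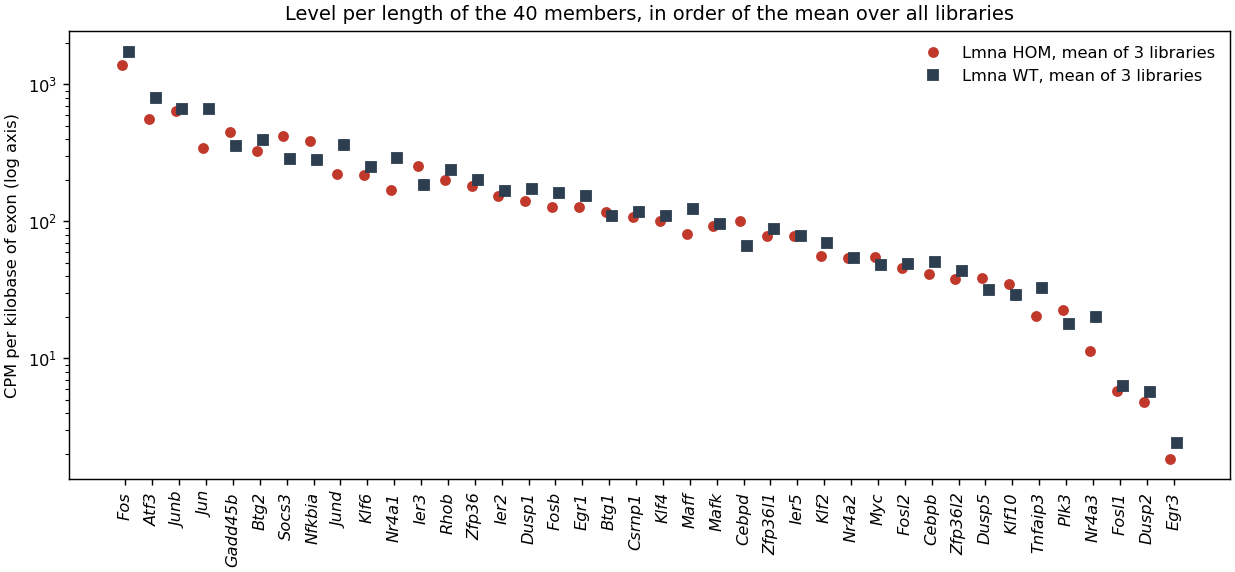
Level of each of the 40 genes in CPM per kilobase of exon (log axis), as the mean of 3 mutant (circles) and 3 wild-type libraries (squares), ordered by the mean over all libraries. Fos leads in both genotypes at 1391 and 1731 CPM per kilobase, and Egr3 is lowest at 1.84 and 2.41.

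The comparison of mutant with wild-type libraries asks how the loss of normal lamin A/C changes transcription in these cells. Of the 40 genes, 4 rose (Cebpd, Socs3, Nfkbia and Ier3) and 7 fell (Jun, Jund, Atf3, Maff, Nr4a1, Nr4a3 and Tnfaip3) with edgeR's quasi-likelihood test at an adjusted p under 0.05. These 11 genes, 27.5% of the members, stand beside 21.1% of the 14099 genes tested, so the share called lay near the background. For rises alone the background was 9.67% and for falls 11.5%. Over the 33 members at 100 CPM or more, 10 were called, where 25.8% of all genes at that level were. All changes were under 2-fold, from 52.5% of the wild-type level for Jun to 151% for Cebpd. The members had a median log2 fold change (mutant minus wild type) of -0.17, with 29 below and 11 above 0, against -0.0038 over all genes tested. Values did not overlap between the genotypes for 20 members, beside 40.7% of all genes tested, with 13 lower (20.6% of all genes) and 7 higher (20.2%). Before adjustment 17 members had a p under 0.05, as did 35.9% of all genes tested. The number of members called, 11, was 6 without mutant library 1, 5 without mutant library 3 and 5 without wild-type library 1. Over all genes tested, 2980 were called with all 6 libraries and 1587, 1576 and 1602 in those fits. The number of members that rose, 4, was 1, 0 and 0 in those fits and 1 without wild-type library 3, and with mutant library 2 left out it was 6. Rises over all genes tested numbered 1363 with all 6 libraries and 706, 692 and 655 in those fits. They numbered 924 without wild-type library 3 and 1764 without mutant library 2. With a covariate for the presence of Y-linked reads, 6 members were called, and Jund, Atf3, Cebpd, Nfkbia and Ier3 were not among them, so that Socs3 alone of the 4 was still called higher. With limma's voom and sample quality weights 18 were called, these 11 with Fos, Egr1, Klf2, Dusp1, Dusp5, Gadd45b and Plk3. Over all genes tested, 4104 were called with voom and 1932 with the Y-linked covariate.

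**Figure D2:**
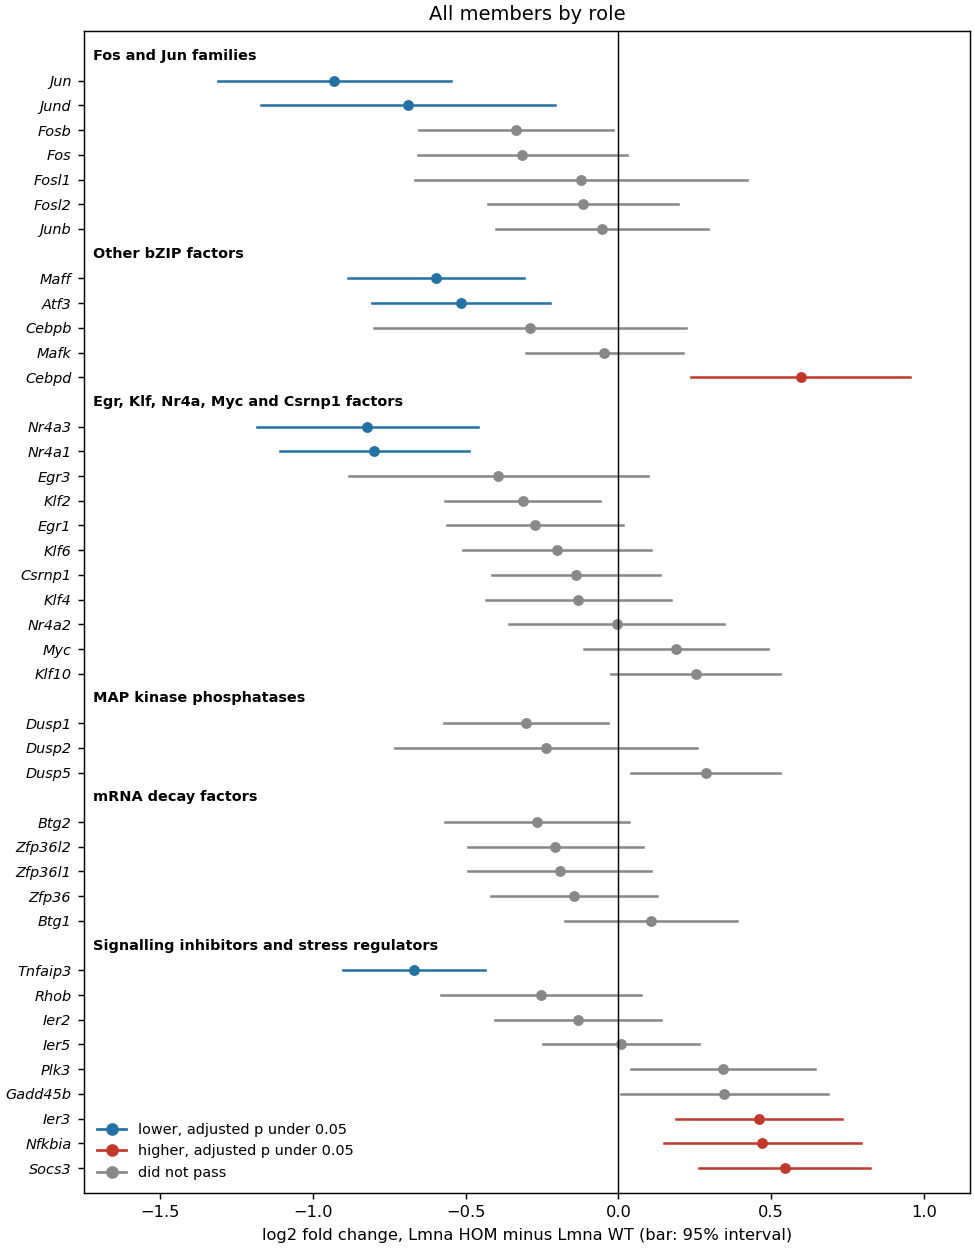
Log2 fold change of each of the 40 genes, mutant minus wild type, with its 95% interval, grouped by role and coloured by whether the adjusted p was under 0.05. Blue points, from Jun at -0.93 to Atf3 at -0.52, mark the 7 that fell, and red points, from Ier3 at 0.46 to Cebpd at 0.60, the 4 that rose.

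Among the Fos and Jun genes, the subunits of AP-1, 2 of 7 fell and 0 rose. All 7 fold changes were below 0, with a median of -0.31, though the sign of Junb turned without mutant library 1 (0.031) or wild-type library 2 (0.025), and that of Fosl1 without mutant library 3 (0.086). Jun (chromosome 4, positions 95049034 to 95052222, minus strand, GRCm38), the founding Jun protein and a target of the stress kinase JNK, was at 897, 1327 and 1076 CPM in mutant libraries 1, 2 and 3. In wild-type libraries 1, 2 and 3 it was at 2293, 2029 and 1969 CPM. Every mutant library lay below every wild-type library, and the log2 fold change was -0.93 (adjusted p = 0.0055, SE 0.17). The call held in all 6 fits that left out a library, with adjusted p from 0.00061 to 0.027. Jund (chromosome 8, positions 70698949 to 70700616), a Jun protein usually present in resting cells, was at 271, 363 and 482 CPM against 601, 721 and 478 CPM. The groups overlapped, since mutant library 3 lay just above wild-type library 3, and the log2 fold change was -0.69 (adjusted p = 0.047, SE 0.22). The call on Jund was lost without mutant library 1 (adjusted p = 0.153), mutant library 2 (0.052), wild-type library 1 (0.111) or wild-type library 2 (0.155). It was also lost with the Y-linked covariate (0.075), with library totals (0.062) and without both libraries high in Gm42418 (0.097). With a block for replicate number it was lost as well (0.054).

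The other AP-1 subunits did not pass the test. Fos, the classic partner of Jun, was at 3176, 3657 and 2986 CPM in mutant libraries and at 4292, 3963 and 3959 CPM in wild-type libraries. The groups did not overlap, but the log2 fold change of -0.31 had a 95% interval of -0.66 to 0.028 (adjusted p = 0.170). Junb, a Jun protein with weaker activity that can oppose Jun, was at 1310, 1463 and 1642 CPM against 1581, 1683 and 1315 CPM. Its libraries were mixed between the genotypes, and the interval ran from -0.40 to 0.29. Fosb had a log2 fold change of -0.33 (adjusted p = 0.120) with groups that did not overlap, Fosl2 of -0.12 and Fosl1 of -0.12, the last on 293 reads in the mutant and 295 in the wild-type group.

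These differences changed the make-up of the Jun family RNA. Per kilobase, Jun was 25.2 to 32.8% of the sum of Jun, Junb and Jund in mutant libraries and 35.4 to 41.9% in wild-type libraries. Junb was 50.1 to 56.2% against 38.7 to 40.6%. Jund overlapped between the genotypes at 16.0 to 21.6% and 19.4 to 24.0%. Within the Fos family the shares overlapped, with Fos at 87.2 to 90.1% in either genotype. The ratio of Jun to Junb per kilobase, which does not depend on how libraries are scaled, was 0.494, 0.654 and 0.473 in mutant libraries 1, 2 and 3, and 1.05, 0.870 and 1.08 in the wild-type libraries. This and the other ratios below were chosen with the values known, so they are given as a description without a test. The ratio of Fos to Fosb overlapped between the genotypes, at 9.58 to 12.7 in mutant and 9.08 to 12.6 in wild-type libraries.

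Of the other leucine zipper factors 2 fell, 1 rose and 2 did not pass. Atf3 (chromosome 1, positions 191170296 to 191218039), a stress-induced factor that dimerises with Jun, was at 1151, 1220 and 1215 CPM in mutant libraries against 1741, 1749 and 1635 CPM. All mutant libraries lay below all wild-type libraries, with a log2 fold change of -0.52 (adjusted p = 0.021, SE 0.13). Its adjusted p was 0.081 without mutant library 1, 0.072 without mutant library 3 and 0.076 without wild-type library 1. It was 0.055 with the Y-linked covariate and 0.058 with the replicate block. Maff (chromosome 15, positions 79346621 to 79359076), a small Maf protein that lacks an activation domain, was at 185, 241 and 203 CPM against 313, 315 and 323 CPM. The groups were apart by more than their spread, at -0.60 (adjusted p = 0.011, SE 0.13), with an adjusted p of 0.0502 without mutant library 3. Mafk, its close relative, was at -0.046 with an interval of -0.30 to 0.21 (adjusted p = 0.806), and its sign turned without mutant library 1 (0.0074). The ratio of Maff to Mafk per kilobase was 0.826 to 0.958 in mutant and 1.25 to 1.30 in wild-type libraries.

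Of the C/EBP factors, 1 rose and 1 did not pass. Cebpd (chromosome 16, positions 15887286 to 15891031), induced by cytokines and glucocorticoids, was at 359, 335 and 431 CPM in mutant libraries against 229, 302 and 213 CPM. Every mutant library lay above every wild-type library, with a log2 fold change of 0.60 (adjusted p = 0.027, SE 0.16). The adjusted p was 0.059 without mutant library 1, 0.101 without mutant library 3, 0.105 without wild-type library 1, 0.088 without wild-type library 3 and 0.059 with the Y-linked covariate. Exons of Cebpd overlap those of Spidr on the other strand, a gene with 751 reads in the mutant and 318 in the wild-type group beside 9017 and 5554 for Cebpd. No source used here gives the strand setting of the counting, so the pair may share reads. Jun and Jund also overlap genes on the other strand, Junos with 182 and 131 reads and Gm11175 with 32 and 38 reads in the mutant and wild-type groups. Cebpb did not pass, at -0.29 with an interval of -0.80 to 0.22. The ratio of Cebpd to Cebpb per kilobase was 2.05 to 3.10 in mutant and 1.21 to 1.39 in wild-type libraries.

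**Figure D3:**
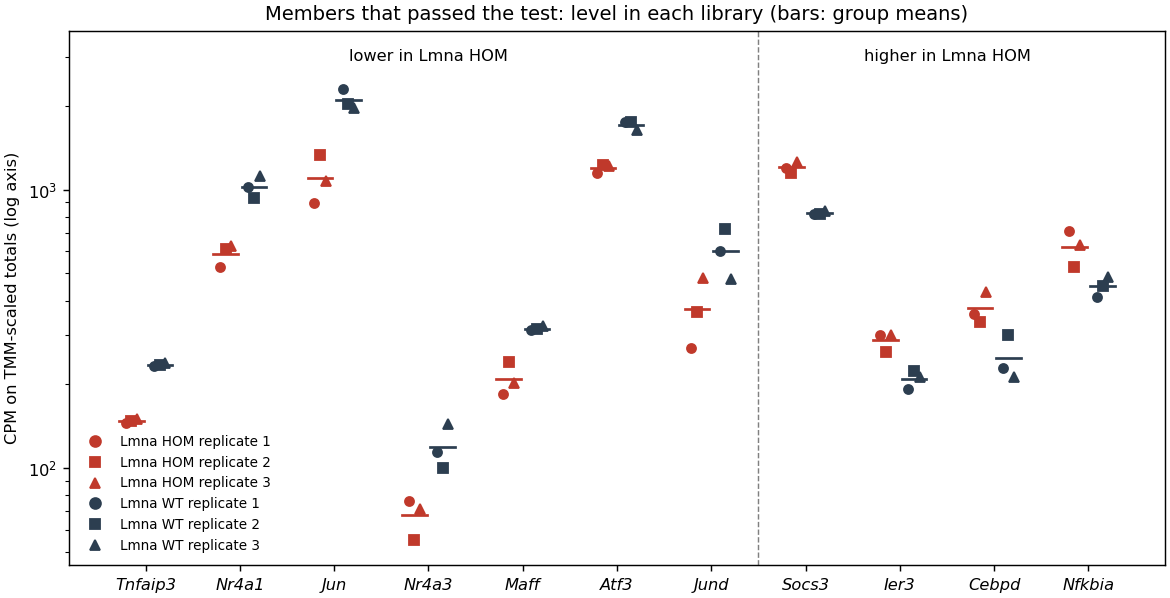
CPM on TMM-scaled totals (log axis) of the 11 genes that passed the test in each mutant (red) and wild-type (dark) library, with symbols for the replicate and bars for group means. The groups are apart for 10 genes, and for Jund mutant library 3 at 482 CPM lies above wild-type library 3 at 478 CPM.

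In the group of Egr, Klf and Nr4a factors with Myc and Csrnp1, 2 of 11 members fell and 0 rose. Both were nuclear orphan receptors of the Nr4a family, which act as transcription factors. Nr4a1 (Nur77; chromosome 15, positions 101254269 to 101274795) was at 526, 613 and 629 CPM in mutant libraries against 1026, 933 and 1117 CPM. Nr4a3 (Nor1; chromosome 4, positions 48045153 to 48086447) was lower in level, at 76.2, 55.3 and 71.7 CPM against 114, 100.3 and 144 CPM. All mutant libraries lay below all wild-type libraries for both genes. The log2 fold change was -0.80 (adjusted p = 0.0044, SE 0.14) for Nr4a1 and -0.82 (adjusted p = 0.0074, SE 0.16) for Nr4a3, and both passed in all 6 fits that left out a library. The third member of the family, Nr4a2 (Nurr1), was at 246, 188 and 223 CPM against 206, 187 and 267 CPM. Its groups were mixed, with a log2 fold change of -0.0061 and an interval of -0.36 to 0.35. The sign of that value turned with library totals (0.014) and without mutant library 2 (0.091) or wild-type library 3 (0.154). The ratio of Nr4a1 to Nr4a2 per kilobase was 2.48 to 3.77 in mutant and 4.85 to 5.78 in wild-type libraries, and that of Nr4a3 to Nr4a2 was 0.199 to 0.218 against 0.364 to 0.376.

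The zinc finger factors of this group did not pass the test. Egr1, induced through serum response factor, had a log2 fold change of -0.27 (adjusted p = 0.159) with groups that did not overlap, at 542 to 617 CPM in mutant and 628 to 738 CPM in wild-type libraries. Klf2, a factor of quiescent and endothelial cells, was at 91.1 to 111 CPM against 122.6 to 134 CPM, also without overlap (-0.31, adjusted p = 0.077). Klf6, the most abundant Klf gene per kilobase, was at 1029, 946 and 899 CPM against 1081, 1006 and 1217 CPM. Its groups overlapped, with an interval of -0.51 to 0.11. Klf10, an early target of TGF-β, was at 0.25 (adjusted p = 0.172), Myc, the growth regulator, at 0.19, Klf4 at -0.13, Csrnp1 at -0.14, and Egr3, on few reads, at -0.39.

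**Figure D4:**
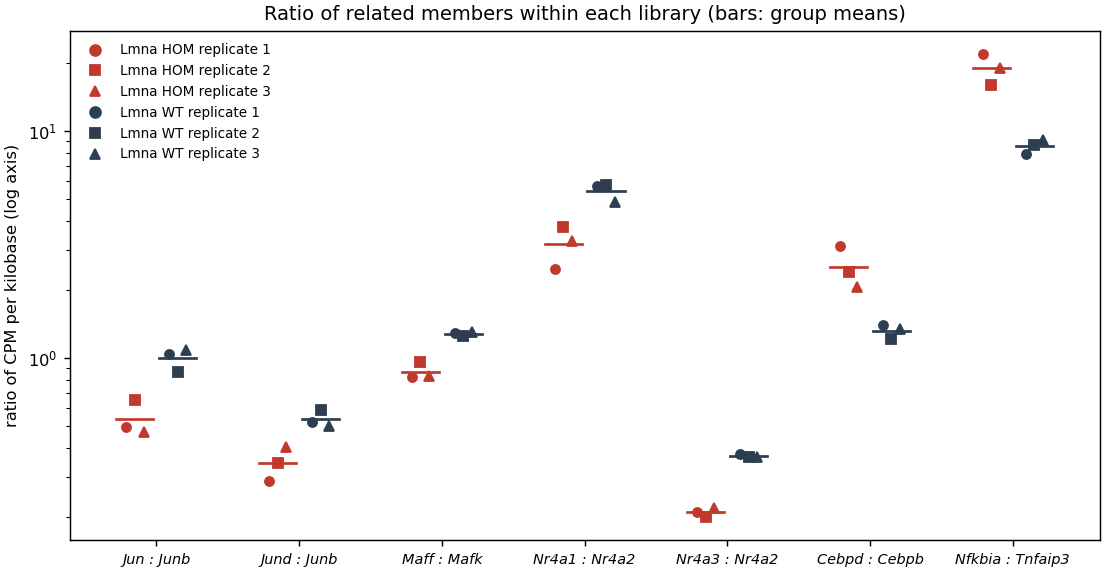
Ratio of CPM per kilobase between members within each mutant (red) and wild-type (dark) library, on a log axis, with bars for group means. The 7 pairs drawn were picked because their groups are apart, as for Nr4a3 to Nr4a2 at 0.199 to 0.218 against 0.364 to 0.376 and Nfkbia to Tnfaip3 at 16.0 to 21.8 against 7.95 to 9.12.

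Of the MAP kinase phosphatases and the factors of mRNA decay, 0 of 3 and 0 of 5 passed the test with edgeR, and 2 and 0 had an unadjusted p under 0.05. DESeq2's Wald test called 0 of these 8 genes, and limma's voom with sample quality weights called Dusp1 (adjusted p = 0.045) and Dusp5 (0.030). Dusp1, which removes phosphate from p38 and JNK, was at 449 to 485 CPM in mutant and 534 to 601 CPM in the wild type (log2 fold change -0.30, adjusted p = 0.101). Dusp5, which acts on ERK in the nucleus, was at 87.6 to 104 CPM against 73.0 to 80.5 CPM, a log2 fold change of 0.29 (adjusted p = 0.089). Neither gene's groups overlapped. Dusp2 was at -0.24 on 238 reads in the mutant and 260 in the wild-type group. Btg2, an antiproliferative protein that brings in the deadenylase complex, was at 806, 909 and 950 CPM against 1146, 1055 and 1005 CPM. The groups did not overlap, and its interval ran from -0.57 to 0.035 (adjusted p = 0.186). Zfp36, or tristetraprolin, which binds AU-rich mRNA, was at -0.15, its relatives Zfp36l1 and Zfp36l2 at -0.19 and -0.21, and Btg1 at 0.11.

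Among the signalling inhibitors and stress regulators 3 of 9 rose and 1 fell. Socs3 (chromosome 11, positions 117966079 to 117970047), the feedback inhibitor of IL-6 family receptors and a STAT3 target, was at 1198, 1149 and 1261 CPM in mutant libraries against 818, 816 and 840 CPM. The groups were far apart relative to their spread, with a log2 fold change of 0.54 (adjusted p = 0.015, SE 0.13), and the adjusted p was 0.061 without mutant library 3 and 0.063 without wild-type library 1. Ier3 (chromosome 17, positions 35821684 to 35822923), a survival factor induced by NF-κB and growth factors, was at 301, 261 and 302 CPM against 192, 224 and 212 CPM. It did not overlap between the groups either, at 0.46 (adjusted p = 0.025, SE 0.12). Its adjusted p was 0.077 without mutant library 1, 0.088 without mutant library 3, 0.108 without wild-type library 1 and 0.059 without wild-type library 3. It was 0.061 with the Y-linked covariate and 0.060 with the replicate block.

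The NF-κB inhibitors moved in opposite directions. Nfkbia (chromosome 12, positions 55489410 to 55492647) encodes IκBα, which holds NF-κB in the cytoplasm, and was at 708, 529 and 634 CPM in mutant libraries against 412, 452 and 486 CPM. Its log2 fold change was 0.47 (adjusted p = 0.043, SE 0.15), with mutant library 2 nearest to the wild-type libraries. The call was lost in each fit that left out a library other than mutant library 2, with an adjusted p of 0.147 and 0.114 without mutant libraries 1 and 3, and of 0.156, 0.091 and 0.062 without wild-type libraries 1, 2 and 3. With the Y-linked covariate it was 0.113, and with the replicate block 0.083. Tnfaip3 (chromosome 10, positions 19000910 to 19015657) encodes A20, a ubiquitin-editing enzyme that shuts off NF-κB signalling, and was at 146, 148 and 150.1 CPM against 232, 235 and 239 CPM. It varied least of all 40 members within each genotype, with a coefficient of variation of 1.45% in both, and the log2 fold change was -0.67 (adjusted p = 0.0029, SE 0.10). The call on Tnfaip3 held in all 6 fits that left out a library. The ratio of Nfkbia to Tnfaip3 per kilobase was 21.8, 16.0 and 18.9 in mutant and 7.95, 8.64 and 9.12 in wild-type libraries. Both promoter windows printed above hold the NF-κB letters, 1 match in Nfkbia and 2 in Tnfaip3.

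The other members of this group did not pass. Gadd45b, a stress protein that acts on MAP kinase kinases, was at 819, 584 and 748 CPM in mutant libraries against 525, 605 and 562 CPM. Its groups overlapped through mutant library 2, and the log2 fold change of 0.35 (adjusted p = 0.132) became 0.47 without that library (adjusted p = 0.029). Plk3, a stress kinase, was at 0.34 (adjusted p = 0.097), and 0.42 without mutant library 2 (adjusted p = 0.043), with groups that did not overlap. Rhob, a small GTPase of endosomes, was at -0.25, Ier2 at -0.13 and Ier5 at 0.0089 with an interval of -0.25 to 0.26. The sign of Ier5 turned without mutant library 3 (-0.022) or wild-type library 1 (-0.041).

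Libraries were compared over the members as groups. The summed level of all 40 genes was 19557, 20535 and 20523 CPM in mutant and 23958, 23361 and 23491 CPM in wild-type libraries, so the groups did not overlap. The 12 Fos, Jun and other leucine zipper genes summed to 8961 to 10210 CPM against 12027 to 12878 CPM. The sum of the 9 signalling inhibitors and stress regulators went the other way, at 3663 to 4187 CPM against 3361 to 3471 CPM. Abundant genes weigh most in such sums. Mean levels were 3273 against 4071 CPM for Fos, 1100 against 2097 for Jun, 1195 against 1708 for Atf3 and 1203 against 825 for Socs3. Of the 9 inhibitors and regulators, 6 had a log2 fold change above 0 and 3 below. Within the mutant group, replicate 2 was the library nearest to the wild-type range for 7 of the 11 called genes, among them Jun, Atf3 and Maff and all 4 that rose, with replicate 3 nearest for 3 and replicate 1 for 1. The same count was not made over all called genes. Mutant library 2 was also nearest for the summed satellite cell markers and heat shock genes, so this was not particular to the members. It was the mutant library high in Gm42418, and it held 4498 Y-linked reads, against 1 and 3 in mutant libraries 1 and 3. Over all 40 members the median coefficient of variation within a genotype was 8.72% in mutant and 8.25% in wild-type libraries. It was 9.84% and 9.90% over the 1852 genes at 100 CPM or more. The 2 sets are not alike in level, since only 33 of the members are at 100 CPM or more, and these are among the 1852.

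**Figure D5:**
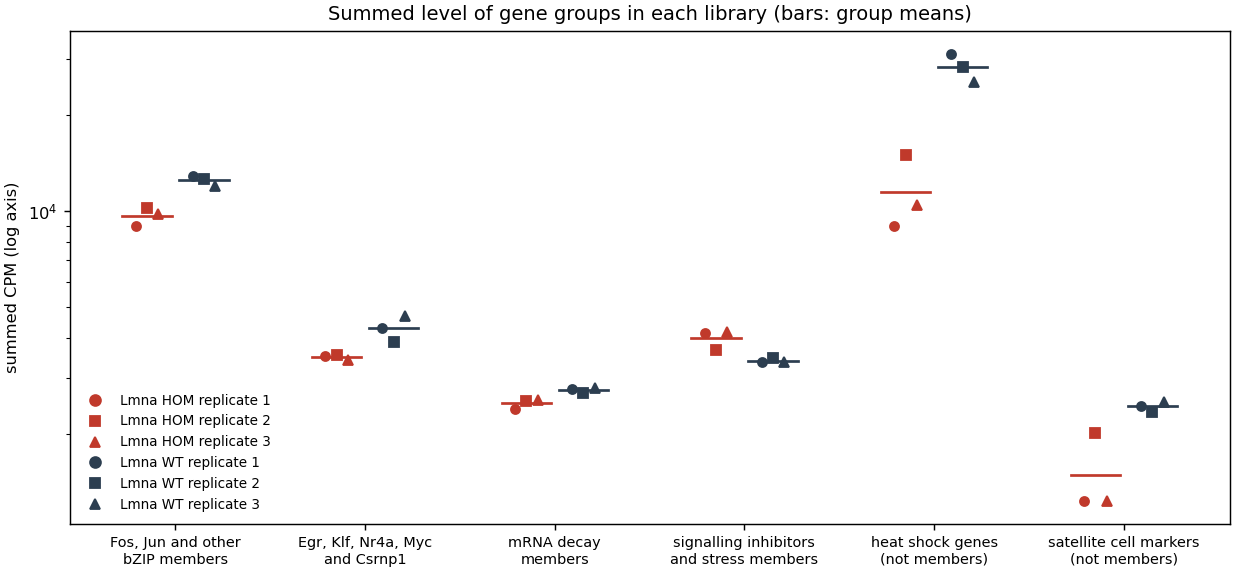
Summed CPM (log axis) of gene groups in each mutant (red) and wild-type (dark) library, with bars for group means, for 4 groups of members and, for comparison, heat shock genes and satellite cell markers. The sum is lower in mutant libraries for leucine zipper members (8961 to 10210 against 12027 to 12878 CPM) and higher for signalling inhibitors (3663 to 4187 against 3361 to 3471 CPM). For heat shock genes it is lower by more (8982 to 14986 against 25309 to 31162 CPM).

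Genes around the members were read from lists that were not part of the 40. Heat shock genes, a second group known to be induced during dissociation of tissue, fell for 13 of 13, with a median log2 fold change of -1.44. Of all genes tested 11.5% fell. Their summed level was 8982, 14986 and 10438 CPM in mutant and 31162, 28241 and 25309 CPM in wild-type libraries, with mutant library 2 again nearest to wild type. Dnajb4, a co-chaperone, was at -1.49 (SE 0.12), Hspd1, the mitochondrial chaperonin, at -1.67 (SE 0.19) and Dnajb1, a co-chaperone of Hsp70, at -2.12 (SE 0.25). The part of these genes' fall in the results on the 40 genes was not tested.

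Other early response genes moved in both directions, with 5 of 32 tested higher and 6 lower (34.4% called, beside 21.1% of all genes tested). Ier5l, a relative of Ier2 and Ier5, rose from 43.6 ± 2.62 to 89.9 ± 11.9 CPM (1.04 on the log2 scale, SE 0.13). Egr2, a relative of Egr1 and Egr3 known from myelinating Schwann cells, fell from 284 ± 30.6 to 131 ± 33.6 CPM (-1.12, SE 0.18). Dusp10, a phosphatase for p38 and JNK, fell from 69.8 ± 1.73 to 33.9 ± 6.70 CPM (-1.04, SE 0.14). The 3 changes were past the threshold in all 6 fits that left out a library. Egr4 was not tested, with 5 reads in the mutant and 18 in the wild-type group.

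Of 15 other leucine zipper genes tested, 1 rose and 4 fell (33.3% called, beside 21.1% of all genes tested). Crem, a cAMP-responsive factor, fell from 128 ± 34.7 to 55.5 ± 8.71 CPM (-1.20, SE 0.19), Jdp2, which dimerises with Jun and represses, was at -0.89 (SE 0.14), and Maf at -0.77 (SE 0.15). Batf2 had too few reads to test, 21 in the mutant and 6 in the wild-type group. Upstream of the members, 2 of 24 kinases and factors rose and 2 fell. The share called, 16.7%, lay below the 21.1% of all genes tested. Map2k2, a kinase that activates ERK, was at -0.66 (SE 0.17), Elk4, a partner of serum response factor, at 0.54 (SE 0.15), and Ep300, a histone acetyltransferase that coactivates AP-1, at 0.44 (SE 0.13). These 3 calls were each lost in at least 1 fit without a single library. For Map2k2 this held without mutant library 1 or wild-type library 1 or 2 (adjusted p = 0.085, 0.080 and 0.083). For Elk4 it held without mutant library 1 or 3 or wild-type library 1 or 2 (0.090, 0.058, 0.087 and 0.072). For Ep300 the call remained only without mutant library 2, with adjusted p up to 0.127 in the other fits.

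In the NF-κB pathway 0 of 14 rose and 2 fell with edgeR, while 8 had an unadjusted p under 0.05, 9 had a log2 fold change above 0, and the median was 0.18. The share called, 14.3%, lay below the 21.1% of all genes tested. Those that fell were Birc3, an inhibitor of apoptosis and NF-κB target, at -0.84 (SE 0.12), and Nfkb1, which encodes p105 and p50, at -0.47 (SE 0.13). Nfkb1 did not pass without mutant library 1 (adjusted p = 0.108), mutant library 3 (0.114), wild-type library 2 (0.0504) or wild-type library 3 (0.098). Of 16 genes of the deadenylase complex and its partners, on which Btg and Zfp36 proteins act, 4 rose and 0 fell. The share called, 25.0%, stands beside 21.1% of all genes tested, and 9.67% of all genes rose. Of these 16 genes, 10 had a log2 fold change above 0 and 6 below, with a median of 0.098. Tob1, a relative of Btg1 and Btg2, was at 0.67 (SE 0.17), Pan2, a deadenylase subunit, at 0.55 (SE 0.13), and Cnot3, a subunit of the CCR4-NOT complex, at 0.50 (SE 0.13). Tob1 lost its call without mutant library 1 or 3 or wild-type library 1 or 2 (adjusted p = 0.068, 0.059, 0.080 and 0.069), and Pan2 without mutant library 3 or wild-type library 1 (0.065 and 0.051). Cnot3 kept its call only without mutant library 2, with adjusted p of 0.057 to 0.071 in the other fits. With the Y-linked covariate Elk4, Ep300, Nfkb1, Tob1 and Cnot3 lost their calls (adjusted p = 0.064, 0.115, 0.087, 0.054 and 0.065), and Cnot3 did so with DESeq2's Wald test (0.0504). The replicate block ended the calls on Ep300, Nfkb1 and Cnot3 (adjusted p = 0.067, 0.061 and 0.058 with edgeR). Of the related genes named with values, Elk4, Ep300, Maf, Crem, Hspd1 and Cnot3 share exon positions with another annotated gene.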

How the data were processed

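For each library the authors deposited whole-number counts by Ensembl gene. Per the submitters' processing notes the tools were Trimmomatic 0.32, STAR 2.5.2b and HTSeq 0.6.1, with build mm10. No source used here states what each tool did, which strand was counted or which annotation was used. Per the labels' protocols total RNA was depleted of ribosomal RNA and prepared with a stranded Illumina kit. Summary lines (reads assigned to no gene or aligned more than once), 45.0 to 49.8% of reads, were left out of totals and tests.

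Symbols, positions and exon lengths (all exons of a gene merged) came from GENCODE M21 on GRCm38, the assembly of mm10, which matched 38861 of 39059 genes. Promoters came from RefSeq on GRCm38.p6. Counts were analysed with R 4.3.3 and edgeR 4.0.16: filterByExpr (minimum count 10, minimum total 15), TMM factors, and the quasi-likelihood test without covariates, with Benjamini-Hochberg adjustment over 14099 genes at 0.05. The standard error is the log2 fold change over the square root of F, and 95% intervals use the test's degrees of freedom. The test was checked on simulated data. No pair of replicates agreed within sampling noise (chi-square of 8.35 to 22.5 per gene).

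The members, lists and alternatives were chosen with earlier results of these data known. Called members and the 10 highest per kilobase are given by library. Of each related list, up to 3 called genes with the smallest p are named. Alternatives used DESeq2 1.42.0 and limma 3.58.1.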

Additional observations from a re-analysis of the deposited data

How the results depend on the processing

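Over 640 refits of single members (40 genes under 16 alternatives), 571 kept direction and side of the threshold, 45 lost a call, 10 gained one and 14 changed sign. Only the 11 called members could lose a call. Of their 176 refits, 131 kept it and 45 lost it. Jun, Nr4a1, Nr4a3 and Tnfaip3 kept their calls under every alternative except the test against a fold change of 1.5, which called 0 members by edgeR (533 genes in all, 199 higher and 334 lower, with 1 higher and 11 lower among the related genes). That test asks for larger changes by construction. Members called, 11, were 18 with voom and sample quality weights (7 higher, 11 lower), 7 with the replicate block (2 higher) and 6 with a covariate for the presence of Y-linked reads (1 higher, with 793 higher of 1932 genes in all and 5 related genes higher). Over all genes tested the main fit called 2980, voom 4104 and the replicate block 2437. The replicate block ended the calls on Jund, Atf3, Nfkbia and Ier3. The cause of the differences between these fits was not tested. Leaving out 1 library gave 5 to 12 members called, 0 to 6 higher and 5 to 7 lower. It gave 1576 to 4002 genes in all, 655 to 1764 higher and 881 to 2238 lower, and 3 to 15 related genes higher, on fewer samples.

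Sign changes, all on members not called, came mostly from leaving out 1 library. The log2 fold change then ran from -0.44 to 0.086 for Fosl1, from -0.15 to 0.031 for Junb, from -0.082 to 0.0074 for Mafk, from -0.11 to 0.15 for Nr4a2 and from -0.041 to 0.056 for Ier5. Without mutant library 2 and wild-type library 2 together, Junb was at 0.025 and Cebpb at 0.014. Nr4a2 was at 0.014 with library totals, 0.036 with voom and 0.0026 with the replicate block, and Ier5 at -0.0021 with no filter. In the main fit same-numbered libraries of the genotypes were not treated as pairs. Their deviations from the genotype mean correlated at -0.036, 0.022 and -0.096, and not every library correlated best with its own number. With so few libraries these values cannot show that same-numbered libraries had no preparation step in common. Mutant library 2 and wild-type library 2 were both high in Gm42418 (1.303 and 1.39% of gene reads). Egr3, Dusp2 and Fosl1 rest on the fewest reads of the 40 members.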
